A study of Homo sapiens with 9 samples.

Results

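The interleukin 1 family is described here by 9 genes, chosen by symbol from the 58336 genes of the deposited tables. They are the ligands IL1A, IL1B, IL18, IL33 and IL36G, the receptor antagonist IL1RN, the signalling receptor IL1R1, the decoy receptor IL1R2 and the shared receptor subunit IL1RAP. Messenger RNA was sequenced from HaCaT cells, an immortalised line of human skin keratinocytes, in 9 libraries of 3 groups. One group was an untreated control. The other 2 received low-dose photodynamic therapy with 5-aminolevulinic acid (ALA), a precursor that cells turn into a light-sensitive porphyrin, at 0.5 mmol per litre, followed by 635 nm light at a dose of 3 J/cm2, and were collected 12 h or 48 h later. No drug-only or light-only group is described in the labels.

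The tables name their columns Nc, A and B, each with the numbers 1 to 3. Nc was read as control and A and B as the 2 treated groups, which is a reading of the names and not a statement of the labels. Nothing in the names ties A or B to 12 h or 48 h, so the treated libraries are called A and B throughout and no time is assigned to them. The labels do not say whether the 3 libraries of a group came from separate cultures, so p-values measure the spread between these libraries, which may be technical.

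Interleukin 1 alpha and interleukin 1 beta are alarm signals that bind IL1R1, which then recruits IL1RAP and passes the signal through the adaptor MYD88 towards NF-kappaB. The receptor antagonist occupies IL1R1 without recruiting IL1RAP, and IL1R2 binds ligand without signalling. Keratinocytes are known to store interleukin 1 alpha and to release it when damaged. Interleukin 1 beta and interleukin 18 are made as precursors that caspase 1 can cut, so their messenger RNA does not measure the active cytokine.

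IL1B was the most abundant member in all 3 groups, and IL1RN was the 1 member that passed the test, being 1.51-fold higher in B than in control (95% interval 1.25 to 1.84). No member passed it in A against control or in B against A. Outside the 9 members, the largest change in the family was in the interleukin 33 receptor IL1RL1, which was 5.57-fold higher in A than in control.

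The libraries held 15337296 to 18028419 counts. All 10 keratinocyte markers had counts in every library, with KRT14 at 2 to 20 counts and the other 9 at 1748 or more. Transcripts of other cell types were unevenly spread. The summed counts of 3 globin genes were 7336, 7457 and 3 in Nc1, Nc2 and Nc3, 597, 1244 and 7 in A1, A2 and A3, and 4, 8 and 8381 in B1, B2 and B3. The 10 granulocyte and monocyte markers summed to 418, 367 and 28 counts in the Nc libraries, 112, 108 and 55 in A and 33, 70 and 466 in B, with 0 to 7 of the markers at 0. Of the 6 fibroblast genes, COL3A1, DCN and LUM had 9 to 31 counts in A1 and A2 and 0 in the other 7 libraries. COL1A1 had 17 to 71, COL1A2 6 to 58 and PDGFRA 0 to 4 counts over all libraries. The 4 endothelial markers, mostly CDH5, summed to 197, 241 and 235 counts in B1, B2 and B3 and to 27 to 70 elsewhere. Base composition also varied. In Nc1 the genes of lowest GC content lay 0.43 above and those of highest GC content 0.29 below the mean of the 9 libraries on the log2 scale. The low-GC and high-GC values were -0.21 and 0.30 in A2, -0.085 and 0.27 in A3, 0.060 and -0.25 in B2 and -0.27 and -0.12 in B3. In such bulk libraries, fewer cells of a type and less RNA per cell cannot be told apart.

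Of the 9 members, 6 lie on chromosome 2 (GRCh38 coordinates of the deposited table). The ligand genes IL1A (112773915 to 112784590, minus strand), IL1B (112829751 to 112836903, minus) and IL36G (112973203 to 112985665, plus) and the antagonist IL1RN (113107214 to 113134016, plus) share a stretch of 360.1 kb, while IL1R2 (101991844 to 102028544, plus) and IL1R1 (102064544 to 102179874, plus) are neighbours. IL18 is on chromosome 11 (112143251 to 112164117, minus), IL33 on chromosome 9 (6215786 to 6257983, plus) and IL1RAP on chromosome 3 (190514051 to 190659750, plus). Exons of IL1R1 share 11 bases with an antisense gene and those of IL1RAP 535 bases with a long noncoding RNA. Both overlapping genes had 0 counts in every library.

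RefSeq promoters (GRCh38.p14) were matched for 8 of the 9 members. The 250 bases before 1 annotated start are shown for IL1RN, the member that passed the test, and for IL1A, which it opposes along with IL1B. They are also shown for IL1RL1, the receptor with the largest change. They were searched on both strands for the AP-1 letters TGANTCA, shown in capitals, and for the NF-kappaB consensus, of which they held no match to overlap with it. IL1RN lies on the plus strand at chr2:113117721-113117970, IL1A on the minus strand at chr2:112784494-112784743 and IL1RL1 on the plus strand at chr2:102337007-102337256.
IL1RN: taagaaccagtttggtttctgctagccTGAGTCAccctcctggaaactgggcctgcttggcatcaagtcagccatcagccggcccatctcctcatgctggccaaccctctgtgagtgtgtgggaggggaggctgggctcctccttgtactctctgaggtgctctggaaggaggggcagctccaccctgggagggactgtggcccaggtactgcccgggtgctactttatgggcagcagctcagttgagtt
IL1A: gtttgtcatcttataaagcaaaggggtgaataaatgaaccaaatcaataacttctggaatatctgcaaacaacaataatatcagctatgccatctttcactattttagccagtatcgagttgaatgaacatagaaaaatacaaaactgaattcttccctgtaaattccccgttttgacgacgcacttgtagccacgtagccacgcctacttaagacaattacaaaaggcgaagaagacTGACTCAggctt
IL1RL1: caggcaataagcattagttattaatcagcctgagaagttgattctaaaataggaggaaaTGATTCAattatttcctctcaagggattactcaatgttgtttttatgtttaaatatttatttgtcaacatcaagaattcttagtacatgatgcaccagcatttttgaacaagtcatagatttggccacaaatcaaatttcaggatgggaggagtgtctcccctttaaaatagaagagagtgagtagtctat
Each of these windows held 1 AP-1 match and 0 NF-kappaB matches. They are not typical of the family, since of the 16 windows listed for the members 3 held the AP-1 letters, both overlapping windows of IL1A and 1 of IL1RN, and 0 held the NF-kappaB consensus. The only window listed for IL1B and the other start of IL1RL1 held 0 AP-1 matches. Of 35116 promoter windows of the same length, 6.57% held the AP-1 letters and 5.21% the NF-kappaB consensus. Another form of the NF-kappaB motif, searched before this one, had 1 match, in another start of IL1RN, and 0 in the windows shown. A match describes letters and not a bound site.

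**Figure D1:**
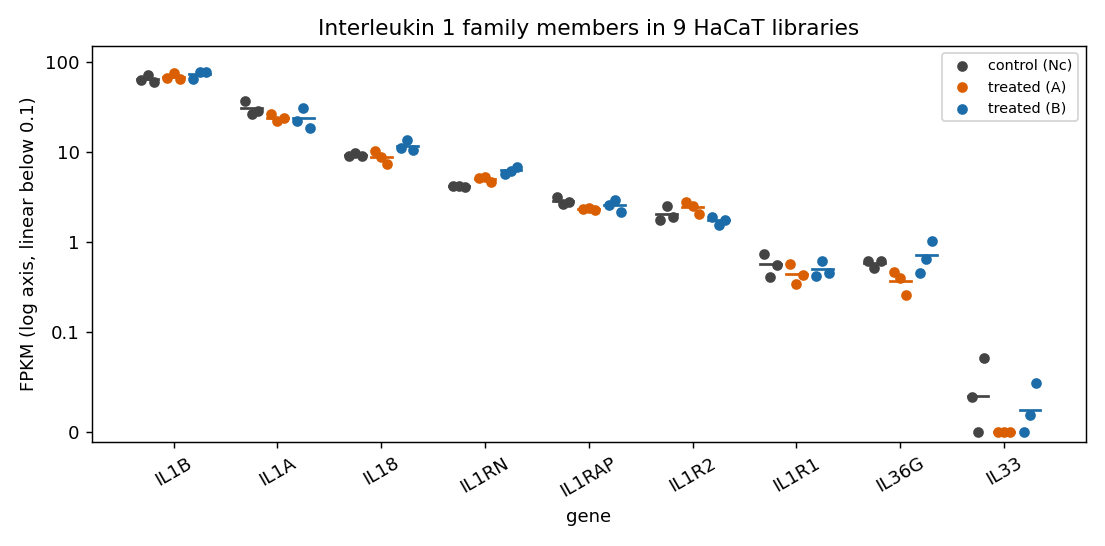
FPKM of the 9 members (horizontal axis) in each of the 9 libraries, on a vertical axis that is logarithmic above 0.1 and linear below it. Points are libraries in the order 1 to 3, short lines the group means (n = 3), and colours the groups; IL1B lies at 59.6 to 77.4 in every library and IL33 at or near 0.

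Levels were compared with the deposited FPKM, a fragment count scaled by the deposited gene length and by library. That length is not the transcript length. It is 3096 bases for IL1B and 11558 for IL1RAP, whose longest transcripts in GENCODE 29 have 1631 and 5413. For IL1A both are 2124. The order of the genes and ratios between them depend on the length used. IL1B led, followed by IL1A, IL18 and IL1RN, and the ranges of neighbours among these 4 did not overlap in any group. The receptors IL1RAP and IL1R2 came next, and their ranges overlapped in A. IL36G and IL1R1 lay between 0.252 and 1.03 and overlapped in all 3 groups, and IL33 was last. IL1B supplied 57.7% ± 3.89 of the members' counts in control, 62.4% ± 2.85 in A and 61.8% ± 3.70 in B (SD, n = 3). The plot of member levels shows this order for each library.

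Among the ligands, IL1B encodes interleukin 1 beta. Its FPKM was 63.0, 71.7 and 59.6 in Nc1, Nc2 and Nc3, 65.8, 75.5 and 63.9 in A1, A2 and A3, and 64.0, 77.4 and 77.4 in B1, B2 and B3. All groups overlapped. The log2 difference was 0.092 (95% interval -0.18 to 0.37) in A against control and 0.18 (-0.095 to 0.46) in B against control, with adjusted p of 0.70 and 0.38.

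IL1A encodes interleukin 1 alpha, active without caspase 1. It measured 37.1, 26.1 and 28.5 FPKM in Nc1, Nc2 and Nc3, 26.0, 22.0 and 23.7 in the A libraries and 22.0, 30.4 and 18.3 in the B libraries. Every A library was below every control library, the nearest pair being A1 and Nc2, and B overlapped control through B2. The log2 difference was -0.34 ± 0.17 (SE) in A against control (adjusted p = 0.25) and -0.36 ± 0.17 in B against control (adjusted p = 0.18), so neither passed the test. IL1A has a GC content of 39.1%, and with offsets for GC content and length the difference in A against control was -0.081. The B difference with these offsets was -0.20 (adjusted p = 0.22). Without the libraries of over 1000 globin counts it was -0.10, with Nc3 as the only control library left. It was called without B2 (-0.58, adjusted p = 0.030) and with no filter on low counts (-0.41, adjusted p = 0.043), in 2 of 21 other settings.

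IL18 encodes interleukin 18, known for driving interferon gamma in lymphocytes. Its FPKM was 8.92, 9.59 and 9.07 in control, 10.1, 8.63 and 7.24 in A and 11.0, 13.3 and 10.6 in B. The B libraries lay above all others, while A and control overlapped. The log2 difference of B from A was 0.42 ± 0.14 (adjusted p = 0.052), and that of B from control was 0.35 ± 0.14 (adjusted p = 0.11). With GC and length offsets both passed the test, at 0.34 (adjusted p = 0.027) and 0.51 (adjusted p = 0.0038). Over the 21 other settings, 11 called IL18 in B against A and 4 in B against control. The offsets called 32.6% of all genes in B against A and 25.5% in B against control.

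IL36G encodes interleukin 36 gamma, an epithelial cytokine. It had 5 to 27 counts in a library and FPKM of 0.611, 0.514 and 0.605 in control, 0.465, 0.393 and 0.252 in A and 0.448, 0.640 and 1.03 in B. The A libraries were all below control, and B1 lay just below A1. The log2 difference in A against control was -0.61 with an interval of -1.54 to 0.33, which leaves changes of either sign possible at this depth. That of B from A was 0.92 (0.012 to 1.82) and did not pass the test (adjusted p = 0.15). It had the same sign in 21 of 21 other settings and was called in 0.

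IL33 encodes interleukin 33, a nuclear alarm signal. Control libraries held 2, 0 and 4 counts of it, each A library 0, and B1, B2 and B3 had 0, 1 and 3. It did not pass the filter on low counts and was not tested. A count of 0 in the A libraries allows up to 3 counts, which at their depths is 0.182 to 0.196 CPM (counting error only).

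The antagonist IL1RN is the member with the clearest difference. Its FPKM was 4.12, 4.14 and 4.10 in Nc1, Nc2 and Nc3, 5.16, 5.18 and 4.58 in A1, A2 and A3, and 5.65, 6.16 and 6.76 in B1, B2 and B3. Control was lowest, A intermediate and B highest, and no 2 of the 3 groups overlapped. IL1RN rose in B against control by 0.60 ± 0.13 (SE) on the log2 scale, with adjusted p = 0.0097 in edgeR's quasi-likelihood test. In A against control the difference was 0.29 ± 0.13 (adjusted p = 0.22), and in B against A it was 0.31 ± 0.13 (adjusted p = 0.11).

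Granulocytes and monocytes also make IL1RN, and their markers were uneven between libraries. The 4 libraries with fewest marker counts were Nc3 (28), B1 (33), A3 (55) and B2 (70), and their IL1RN was 4.10, 5.65, 4.58 and 6.16 FPKM. The part of these transcripts in the IL1RN difference was not tested. The B difference kept its size but not its call without B3, at 0.54 with adjusted p = 0.062. Without the 4 libraries with over 1000 globin counts (Nc1, Nc2, A2 and B3) it was 0.54. That value rests on Nc3 as the only control library, so no p is given.

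**Figure D2:**
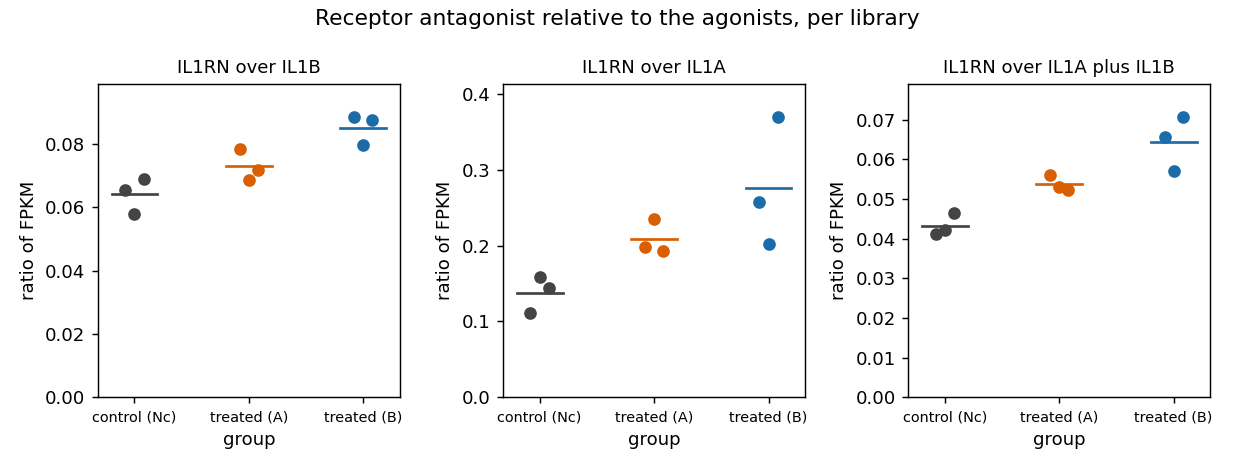
Ratio of IL1RN to IL1B, to IL1A and to their sum, from FPKM within each library (vertical axes start at 0); points are libraries and lines group means (n = 3). The ratio to the sum runs from 0.0412 to 0.0465 in control and lies above that in every A and B library.

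Set against both agonists in the same library, IL1RN amounted to 0.0433 ± 0.0028 of the summed FPKM of IL1A and IL1B in control, 0.0538 ± 0.0020 in A and 0.0645 ± 0.0069 in B (SD, n = 3). The 3 groups did not overlap on this ratio. Against IL1B alone, A overlapped control, and against IL1A alone, B overlapped A. The plot of the antagonist ratio gives each library. These ratios are a description without a test, and their size depends on the gene lengths used for FPKM.

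Of the receptors, IL1R1 is the one that signals. It was low, at 0.730, 0.400 and 0.547 FPKM in control, 0.568, 0.335 and 0.423 in A and 0.419, 0.608 and 0.452 in B. All groups overlapped, and the 95% interval of the log2 difference in A against control ran from -0.88 to 0.24.

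IL1RAP, the subunit shared by the receptors for interleukin 1, 33 and 36, measured 3.16, 2.65 and 2.75 FPKM in control, 2.31, 2.40 and 2.23 in A and 2.57, 2.94 and 2.12 in B. The A libraries were all below control and B overlapped both. The log2 difference in A against control was -0.29 ± 0.14 (adjusted p = 0.22), and with GC and length offsets it was -0.088.

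The decoy IL1R2 measured 1.74, 2.52 and 1.86 FPKM in control, 2.75, 2.49 and 2.04 in A and 1.89, 1.55 and 1.73 in B. The B libraries lay below the A libraries and both overlapped control. The log2 difference of B from A was -0.50 ± 0.19 (adjusted p = 0.079), and with GC and length offsets it was -0.63 and passed the test (adjusted p = 0.0095). Those offsets called 32.6% of all genes in B against A, and IL1R2 was called there in 4 of 21 other settings.

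**Figure D3:**
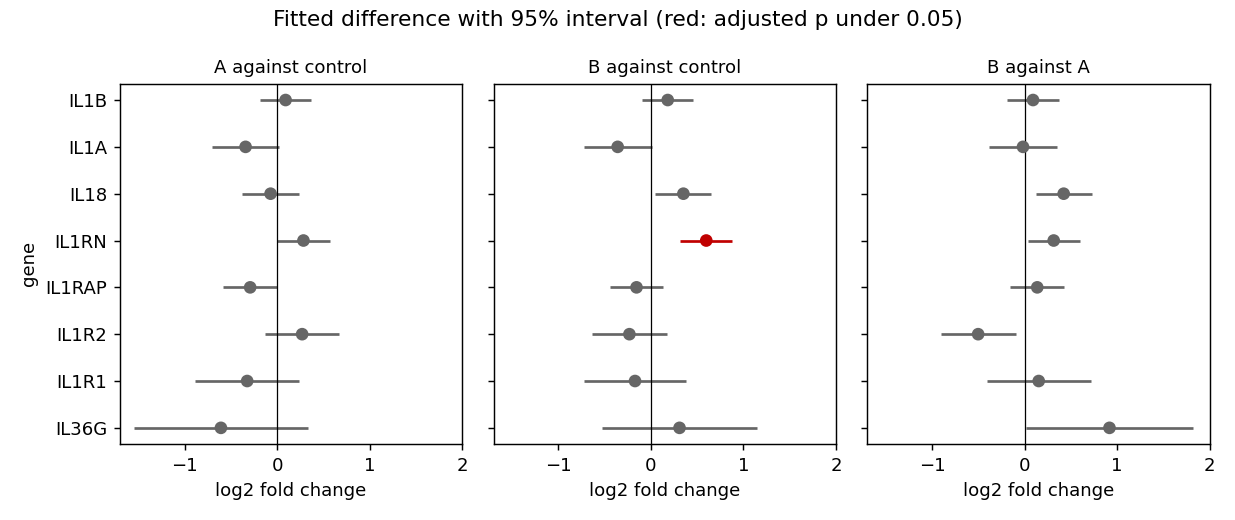
Fitted log2 fold change (horizontal axis) of the 8 tested members in the 3 comparisons, with 95% intervals from edgeR; 3 libraries a group. Red marks adjusted p under 0.05, which only IL1RN in B against control reached, at 0.60.

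Counted over the members, 8 of the 9 were tested among 13845 genes. In A against control 0 of 8 passed the test, where 2.72% of all genes did, and 1 member had an unadjusted p under 0.05 in edgeR while DESeq2 called 0. B against control gave 1 of 8, against 13.4% of all genes. In B against A 0 of 8 passed, against 18.0% of all genes, with 4 members at an unadjusted p under 0.05 in edgeR and 1 called by DESeq2, IL18. Of all genes, DESeq2 called 760 in A against control, 2103 in B against control and 2601 in B against A. No share over all genes was taken at the unadjusted p. The median log2 difference of the tested members was -0.18, 0.013 and 0.14 in these comparisons, beside 0.0088, -0.0020 and -0.021 over all genes. With no filter, so that IL33 entered too, the median of all 9 was -0.35, -0.21 and 0.16. The comparisons with control share the Nc libraries and are not independent.

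Groups of scaled counts did not overlap for 4 members in A against control (IL1A, IL1RAP, IL1RN and IL36G), where 26.1% of all genes showed this. They did not overlap for 2 in B against control (IL18 and IL1RN), beside 30.9% of all genes, and for 3 in B against A (IL18, IL1RN and IL1R2), beside 34.3%. The plot of fitted changes shows how wide the intervals of the low members are.

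Libraries of control and A with the same number deviated together (r = 0.51 to 0.81). The labels give no pairing, and some differently numbered libraries of A and B deviated together too (r up to 0.61). The paired p-values hold only if the numbers do pair control with A. With the number as a block and only these 6 libraries of control and A, IL1A fell by 0.35 (adjusted p = 0.0011) and IL1RAP fell by 0.31 (adjusted p = 0.0059) in A. IL1RN was 0.26 higher there, with adjusted p = 0.067. That fit called 34.8% of all genes. With GC and length offsets in the same paired fit, which called 16.7% of all genes, IL1A was -0.088 (adjusted p = 0.38) and IL1RAP -0.097 (adjusted p = 0.40), and the 1 member called was IL1B, higher by 0.15 (adjusted p = 0.045).

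Other ligands and receptors of the family were read from lists of 5 and 8 genes. Of the 5 other ligands, 1 was tested, IL36RN, the antagonist of the interleukin 36 receptor. It had 44, 54 and 58 counts in control, 65, 59 and 42 in A and 66, 91 and 128 in B, each B library being above all others. IL36RN rose in B against control by 0.77 ± 0.23 on the log2 scale (adjusted p = 0.039). Without B3 it was 0.56 with adjusted p = 0.23, and without Nc1 0.61 with adjusted p = 0.13; 12 of 21 other settings ended the call, 5 of them by leaving out Nc1, Nc2, Nc3, B2 or B3.

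IL1RL1, also called ST2, binds interleukin 33. It measured 1.01, 1.01 and 0.830 FPKM in control, 5.85, 4.30 and 5.58 in A and 0.688, 1.08 and 0.796 in B. The A libraries stood clear of all others and B overlapped control. IL1RL1 rose in A against control by 2.48 ± 0.19 on the log2 scale (adjusted p = 1.6e-06) and fell by 2.62 ± 0.19 in B against A (adjusted p = 3.7e-07). The fibroblast genes COL3A1, DCN and LUM were at 0 in A3 and above it in A1 and A2, while COL1A1 and COL1A2 had counts in every library. The part of fibroblast transcripts in the difference was not tested. Exons of IL1RL1 share 95 bases with IL18R1, which had 34 to 67 counts in a library and passed the test in no comparison.

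IL18BP, a secreted protein that neutralises interleukin 18, had 32, 64 and 62 counts in control, 48, 58 and 41 in A and 67, 137 and 136 in B. It rose in B by 0.99 ± 0.29 against control (adjusted p = 0.034) and by 0.98 ± 0.29 against A (adjusted p = 0.029) on the log2 scale. Its exons share 675 bases with NUMA1 on the opposite strand, which had 1806 to 2494 counts, and without a stated strand setting reads of the pair cannot be told apart. The first call ended without Nc1 (0.69, adjusted p = 0.10), Nc3, B2 or B3, and the second without A1, A3, B2 or B3. The receptor list as a whole had 4 of 8 genes tested, with 1 higher in A, 1 higher in B, and 1 higher and 1 lower in B against A, beside 2.72%, 13.4% and 18.0% of all genes called.

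**Figure D4:**
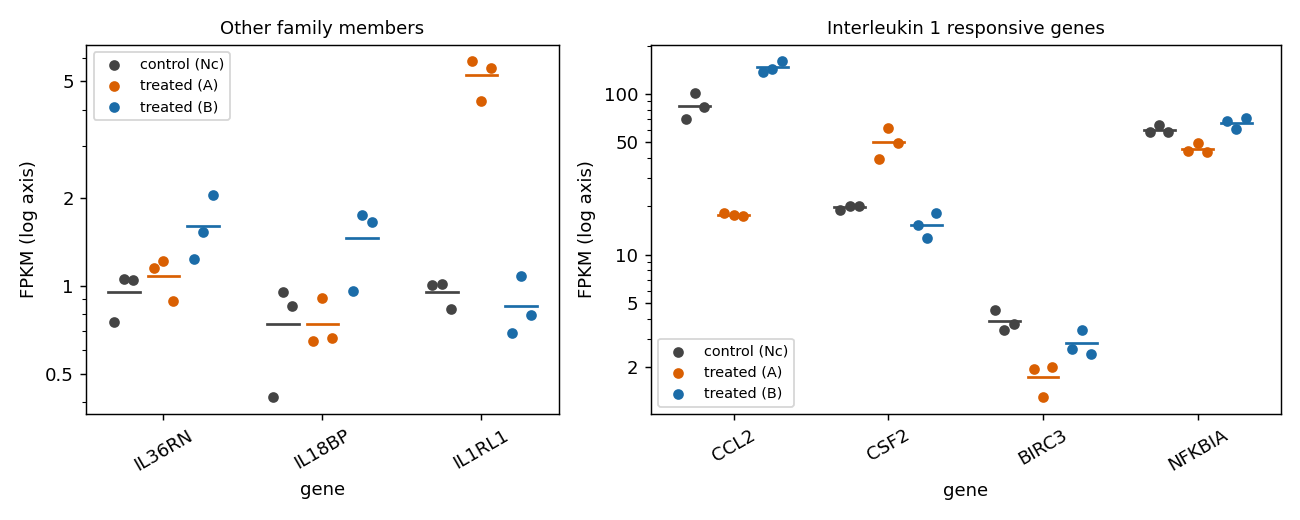
FPKM of 3 other family genes (left) and 4 interleukin 1 responsive genes (right) in each library, on log axes; points are libraries and lines group means (n = 3). IL1RL1 is high in the 3 A libraries at 4.30 to 5.85, where CCL2 is low at 17.4 to 18.1.

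The inflammasome and processing list holds 15 genes, of which 10 were tested. It gave 0 calls in edgeR in A against control (2 at an unadjusted p under 0.05, and CASP1 called by DESeq2) and 0 in B against control (3 at an unadjusted p under 0.05, and 0 by DESeq2). Of all genes, edgeR called 2.72% and 13.4% in these comparisons. GSDMD, the pore-forming gasdermin cut by inflammatory caspases, was lower in B than in A, with a difference of -0.50 ± 0.15 on the log2 scale (adjusted p = 0.031). It measured 15.1, 18.2 and 19.3 FPKM in A and 14.8, 10.8 and 11.6 in B, and the call ended without A2, A3, B2 or B3. With GC and length offsets the difference was -0.29 (adjusted p = 0.011). In the paired fit of A with control, 2 genes of this list were higher and 2 lower in A, beside 34.8% of all genes called. GSDMD was among the former at 0.31 (adjusted p = 0.0027), and with offsets in that fit it was 0.037 (adjusted p = 0.70).

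Of the 16 receptor signalling genes, 15 were tested. In A against control 0 passed in edgeR, beside 2.72% of all genes, with 2 at an unadjusted p under 0.05 and IKBKG called by DESeq2. The paired fit called 5 higher and 5 lower, beside 34.8% of all genes, with IKBKG at 0.67 (adjusted p = 0.00095). TAB2 was -0.18 in it (adjusted p = 0.040). With offsets in that fit 1 higher and 1 lower were called, beside 16.7% of all genes, IKBKG being 0.42 (adjusted p = 0.018). In B against control 3 of 15 passed, beside 13.4% of all genes. There the adaptor MYD88 rose by 0.45 ± 0.11 (adjusted p = 0.017). TAB2 and TAB3, which link the kinase TAK1 to ubiquitin chains, fell by 0.50 and 0.51 (adjusted p = 0.033 and 0.030). MYD88 measured 12.6, 13.5 and 13.1 FPKM in control and 19.0, 16.3 and 17.9 in B, and the groups did not overlap. Its call ended without Nc3 or B3, and with GC and length offsets it was 0.28 (adjusted p = 0.016). The TAB2 and TAB3 calls ended without Nc1, Nc3 or B3, as did that of TAB2 without B2 and that of TAB3 without B1, and both ended with library totals as scaling (-0.48 for each, adjusted p = 0.079 for TAB2 and 0.095 for TAB3). With GC and length offsets TAB2 was -0.29 (adjusted p = 0.073) and TAB3 -0.26 (adjusted p = 0.024). In B against A 2 of 15 genes were lower, beside 18.0% of all genes called, IKBKG and IRAK1, the latter named after its value was seen. There 7 had an unadjusted p under 0.05 in edgeR. DESeq2 called IKBKG, IRAK1 and MYD88, and MYD88 was 0.30 higher in B in edgeR (adjusted p = 0.070). IKBKG, the regulatory subunit of the kinase that frees NF-kappaB, differed by -0.68 ± 0.20 (adjusted p = 0.029), but by -0.38 without A3 (adjusted p = 0.21). The call also ended without B2 or B3, and the gene has a near-identical pseudogene, so its counts are uncertain.

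Among 20 genes known to respond to interleukin 1, 18 were tested. In A against control 1 was higher and 2 were lower, beside 2.72% of all genes called. There 7 had an unadjusted p under 0.05 in edgeR, and DESeq2 called 5, NFKBIA among them. Of all genes, DESeq2 called 760 in this comparison. The chemokine CCL2 measured 70.0, 101.1 and 82.5 FPKM in control, 18.1, 17.6 and 17.4 in A and 136.4, 143.0 and 159.5 in B, with no overlap of any pair of groups. It fell by 2.24 ± 0.15 in A against control (adjusted p = 2.0e-07) and rose by 0.80 ± 0.14 in B against control (adjusted p = 0.0026).

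CSF2, the growth factor GM-CSF, moved the other way. It measured 19.0, 20.1 and 20.0 FPKM in control, 39.7, 61.3 and 49.6 in A and 15.2, 12.7 and 18.1 in B. It rose in A against control by 1.36 ± 0.17 (adjusted p = 0.00032), and B against control did not pass the test (-0.35, adjusted p = 0.18). With GC and length offsets CSF2 in B against control was -0.50 and passed it (adjusted p = 0.012).

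BIRC3, an inhibitor of apoptosis induced by NF-kappaB, measured 4.53, 3.41 and 3.73 FPKM in control, 1.94, 1.31 and 2.00 in A and 2.60, 3.42 and 2.40 in B. BIRC3 fell by 1.14 ± 0.18 in A against control (adjusted p = 0.0031). NFKBIA, the inhibitor of NF-kappaB that NF-kappaB itself induces, measured 44.1, 49.7 and 43.6 FPKM in A and 67.9, 60.9 and 70.4 in B. It was higher in B than in A by 0.53 ± 0.12 (adjusted p = 0.0062), and A against control did not pass the test (-0.37, adjusted p = 0.10). In the paired fit of A with control NFKBIA fell by 0.39 (adjusted p = 0.00033), and with offsets in that fit by 0.50 (adjusted p = 5.0e-06). That paired fit called 5 of the responsive genes higher and 3 lower of 17 tested, beside 34.8% of all genes. With offsets it called 4 higher and 4 lower, beside 16.7% of all genes.

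In B against control 3 of 18 responsive genes were higher and 0 lower, beside 13.4% of all genes called. They were CCL2 and, named after their values were seen, LCN2 (0.49, adjusted p = 0.049) and CSF3 (1.84, adjusted p = 0.043). DESeq2 called CCL2 and LCN2 but not CSF3. The CSF3 value rests on few counts, 4, 3 and 3 in Nc1, Nc2 and Nc3 and 8, 18 and 13 in B1, B2 and B3. Without the libraries of over 1000 globin counts, which leaves Nc3 as the only control library, CCL2 in B against control was 0.78. In that fit BIRC3 in A against control was -0.91 and NFKBIA in B against A 0.56, and no p is given. In B against A 5 were higher and 4 lower, beside 18.0% of all genes called. The plot of pathway genes shows that CCL2 and CSF2 were ordered differently across the groups. The median log2 difference of the 18 tested genes was 0.046, 0.092 and 0.098 in A against control, B against control and B against A.

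The genes whose scaled counts followed those of a ligand most closely over the 9 libraries were sought among 9729 genes whose mean count was 100 or more. For IL1A they were ATAD2B (Pearson r = 0.985) and RLIM (0.982). IL1B was followed by ZNF133 (0.926), MRPL45 (0.921) and SRSF2 (0.919), and IL18 by C1orf21 (0.969), SMYD3 (0.966) and IFT122 (0.960). These values share libraries, depth and base composition and describe likeness only. IL33 was below the count minimum.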

How the data were processed

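Per the labels' protocols, paired reads of 150 bases were taken from HaCaT RNA. FastQC, HISAT2, StringTie and the build GRCh38 are named, without versions, per the submitters' processing notes. For annotation release, strand setting and multiply mapping reads, nothing is stated there or in the file headers. The authors deposited whole-number counts per gene, not normalized, and FPKM. Each deposited FPKM equalled the count divided by gene length and a constant of the library, which was 0.936 to 1.07 times the library total.

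The 9 members and the gene lists were chosen with earlier results of these data known. All members are named. Of each of 5 pathway lists, up to 4 genes of lowest adjusted p among those past 0.05 are named, and for 4 ligands the 3 genes of highest Pearson r, of which 1 is not reported here. Genes passing filterByExpr (minimum count 10) were tested with edgeR 4.0.16 (TMM scaling, quasi-likelihood, two-sided, all 9 libraries, Benjamini-Hochberg over 13845 genes, threshold 0.05) in R 4.3.3. Standard errors are the log2 fold change over the root of F. Alternatives were DESeq2 1.42.0, other scalings, no filter, the replicate number as a block, GC and length offsets (mgcv 1.9.3, longest transcript in GENCODE 29), only the 6 libraries compared, and each library left out. The block with 6 libraries, the offsets with 6 libraries, both together and leaving out libraries with over 1000 globin counts were chosen after seeing the data. The column numbers are the only source of a pairing. Deviations of same-numbered libraries correlated at 0.51 to 0.81 between Nc and A, at -0.59 to -0.33 between Nc and B and at -0.60 to -0.36 between A and B. Those of differently numbered libraries correlated at -0.65 to 0.23, -0.16 to 0.58 and -0.16 to 0.61. Numbers were therefore taken to pair Nc with A only. High correlations also occurred between unlike numbers, so these data do not establish a pairing. The edgeR fit was tested on simulated counts. Tables and plots used Python 3.11.15, pandas 2.3.3, NumPy 2.4.6 and matplotlib 3.10.9.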

Additional observations from a re-analysis of the deposited data

Results flagged for a closer look

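Among the genes named in the report, 10 had an effect that differed between A and B, by the direct test of B against A in edgeR (log2 difference, B minus A). They were IL1RL1 (-2.62), IL18BP (0.98), GSDMD (-0.50), IKBKG (-0.68), CCL2 (3.04), CSF2 (-1.71), BIRC3 (0.68), NFKBIA (0.53), IRAK1 (-0.52) and LCN2 (0.48), the last 2 named after their values were seen. Apart from IRAK1 and LCN2, these genes were named for passing the test in at least 1 comparison, B against A included. The count is therefore partly fixed by that choice. Of all genes, 18.0% were called in B against A. None of the 8 tested members, which were named whatever their result, was among the 10.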

How the results depend on the processing

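IL1RN in B against control had the same sign in 21 of 21 other settings and passed the test in 17. Its call ended without B3 and with the replicate block in 6 libraries (0.60, adjusted p = 0.069). It also ended with that block and offsets (0.41, adjusted p = 0.051). The block pairs Nc with B by number, although deviations of same-numbered Nc and B libraries correlated at -0.59 to -0.33. The other setting without a call left out the 4 libraries of over 1000 globin counts (the high-globin libraries), where Nc3 is the only control library. The number of genes called in A against control, 376 of 13845, was 992 with no filter on low counts, 244 with the replicate block, 4601 with that block and only the 6 libraries compared, 2208 with offsets in that fit, 631 and 639 with GC and length offsets in 9 and 6 libraries, 760 with DESeq2 and 38 without the high-globin libraries. In B against control, 1850 became 3535 and 3144 with GC and length offsets in 9 and 6 libraries, 3096 with the block and offsets, 777 with the block in 6 libraries and 44 without the high-globin libraries. In B against A, 2498 became 4517 and 4355 with the offsets in 9 and 6 libraries, 4174 with block and offsets and 932 without the high-globin libraries. Leaving out 1 library gave 101 (without A2) to 910 (without A1) genes in A against control, 489 (without B3) to 2088 (without A1) in B against control and 1160 (without A3) to 3197 (without Nc1) in B against A. These fits have fewer libraries, and the fit without the high-globin libraries keeps Nc3 as the only control library. Otherwise the cause was not tested. No sign change of a single value involved a call. With the GC and length offsets, alone, with the block, in 6 libraries and in 6 with the block, IL18 in A against control was 0.18, 0.17, 0.17 and 0.17 and IL1B in B against A -0.054, -0.051, -0.052 and -0.051. Without the high-globin libraries, IL36G and IL1RAP in B against control were -0.13 and 0.022 and IL1A in B against A 0.085, which was 0.062 with library totals. Leaving out 1 library moved IL18 in A against control between -0.19 and 0.047, IL36G in B against control between -0.057 and 0.56, IL1R1 in B against control between -0.35 and 0.063, IL1A in B against A between -0.23 and 0.14, and IL1R1 in B against A between -0.011 and 0.37. The members' median in B against control was 0.013 over those that passed the filter. Depth limits IL33, IL36G and IL1R1 most.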
